A study of Xenopus tropicalis with 5 samples.

Results

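Close m5C sites are cytosines whose nearest other methylated cytosine on the same strand lies only 2 to 30 nt away. In the mRNA of Xenopus tropicalis stage 0 embryos, 1108 of 18524 sites (5.98%) were of this kind. They were selected on the combined 100 ng list by the distance to the nearest listed site, by a gene with 2 to 9 listed sites, and by a methylation level below 80%. They lay in 553 of the 4027 genes with 2 to 9 sites (13.7%). The sites, their spacing and their levels in the 100 ng list are therefore a description. Spacing was not tested, and 100 ng levels entered tests only beside those of lower inputs.

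RNA bisulfite sequencing (RNA BS-seq) was performed on polyadenylated RNA of early embryos, with no treatment or mutation named in the labels. Bisulfite turns unmethylated cytosine into uracil, which is read as T, and m5C stays C, so each level below is the percentage of reads that kept the C. The labels gave 5 libraries, 1 each of 5, 10 and 20 ng and 2 of 100 ng of RNA. The study calls the replicates of such samples technical in its main text, but biological in a supplementary legend that covers several species. The 100 ng libraries were deposited as 1 combined list, so no SD between replicates could be given, and each p-value compares the reads of libraries and not of conditions. Pooled embryos gave the RNA, and input below means the amount named in the label.

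In mRNA, m5C is written mainly by the tRNA methyltransferases NSUN2 and NSUN6. NSUN2 sites, called Type I, are followed by a G-rich stretch, and NSUN6 sites, called Type II, lie at the first cytosine of CTCCA. Both enzymes also recognise RNA structure around the cytosine. Maternal mRNAs are the transcripts that an egg stores and that carry the embryo until its own genome is switched on. Among egg and germ plasm genes, 17 of 22 had a listed site in the 100 ng list, against 1 of 11 follicle cell genes (krt18). Of 16 symbols of later embryo genes, 0 had one, and t and tbxt among them name the same gene. Genes were matched by symbol, so one listed under another name would be missed. A listed site shows a covered and methylated transcript, and the lists hold no expression values. A gene without a listed site is therefore not shown to lack its transcript.

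The bases next to the sites show how little separates some neighbours. The 4 bases that follow a site, 5′ to 3′, were available for 1223 of all sites and for 69 of the 1108 close sites, from a supplementary table of the study that holds sites examined in 2 frogs. The 4 genes below are those with bases listed for the 5′ site of a pair up to 4 nt apart. The capital marks the second methylated cytosine of the pair, and the methylated cytosine of the 5′ site itself stands directly before the first letter.
scaf8: gCag
rab2a: aCgg
pemt: gCag
ap4e1: tcCa
In ap4e1, which encodes a subunit of the AP-4 adaptor, the second site is the second cytosine after the first, within the letters of the Type II motif. In scaf8, which binds the tail of RNA polymerase II, rab2a, a small GTPase of membrane traffic, and pemt, which methylates phosphatidylethanolamine, 1 unlisted base separates both sites. Every listed site is a cytosine, so the base at the partner position only checks the coordinates. It was C in all 25 consecutive pairs up to 4 nt apart with listed bases, adjacent pairs included.

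Bases were listed for both sites of 4 close pairs, and they are shown with each G in capitals because G-rich bases mark Type I sites.
rabgap1l 5′ site: GaGG
rabgap1l 3′ site: GaGa
mesdc1 5′ site: GGct
mesdc1 3′ site: GGGa
marcks 5′ site: GGGG
marcks 3′ site: tcca
nsmce3 5′ site: tcca
nsmce3 3′ site: tcca
The letters TCNA (site strand only, N any base) followed 14 of the 69 close sites with listed bases (20.3%) and 249 of all 1223 (20.4%). At least 2 G followed 46 close sites (66.7%) and 749 of all (61.2%). A match describes letters only.

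These examples already held like and unlike letters with like and unlike levels. In nsmce3, a subunit of the SMC5/6 complex, both sites 27 nt apart were followed by the same letters. The 5′ site had 12.2% at 20 ng and 12.01% at 100 ng, and was not listed at 5 or 10 ng. The 3′ site had 65.9% at 5 ng, 70.3% at 10 ng, 67.8% at 20 ng and 69.7% at 100 ng. Identical letters thus stood beside levels that differed by 55.6 points at 20 ng (adjusted p = 6.27e-54, two-sided Fisher's exact test). In rabgap1l, a Rab GTPase-activating protein, 6 nt separated a 5′ site of 74.4% at 5 ng, 71.0% at 10 ng, 82.1% at 20 ng and 62.7% at 100 ng from a 3′ site. That 3′ site had 29.7% at 5 ng, 22.4% at 10 ng, 32.1% at 20 ng and 25% at 100 ng, so the sites did not overlap in any list. In marcks, a membrane-bound substrate of protein kinase C, the 5′ site had 14.0%, 18.1%, 13.04% and 11.8% at 5, 10, 20 and 100 ng. The 3′ site, 11 nt away and with the Type II letters, had 30%, 24.4%, 32.1% and 31.4%, and its excess passed the test at 5 ng (adjusted p = 0.00927) and 20 ng (adjusted p = 0.00297) but not at 10 ng (adjusted p = 0.435, Fisher's exact test). In mesdc1, 15 nt apart, the 5′ site had 16.0% at 5 ng, 23.2% at 10 ng, 19.6% at 20 ng and 17.2% at 100 ng. Its 3′ site had 14.9% at 5 ng, 14.7% at 10 ng and 10.8% at 100 ng, and the difference did not pass the test at 5 ng or at 10 ng (adjusted p = 0.929 and 0.0709, Fisher's exact test).

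Most close sites came as pairs. Of the 1108 sites, 1039 formed 509 clusters: 490 of 2 sites, 17 of 3 and 2 of 4. The other 69 had a neighbour that the selection left out, either because it had a site 1 nt away (20) or because its level was 80% or more (49). Counting each neighbouring pair within a cluster once gave 530 close pairs in 493 genes. Of the genes with close sites, 451 held 2 of them, 60 held 1, 24 held 3, 16 held 4, and eif5b and map1s held 5 each.

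The spacing was uneven at its short end. A spacing of 2 nt occurred in 33 close pairs, 3 nt in 2, 4 nt in 9, 5 nt in 11, 6 nt in 12 and 7 nt in 27. From 11 to 20 nt there were 190 pairs, and from 21 to 30 nt there were also 190. The spacing was a multiple of 3 in 174 pairs (32.8%), and without the pairs at 2 nt the 3 remainders took 35.0%, 32.4% and 32.6%. Directly outside the selection, 479 sites below 80% had a neighbour 1 nt away, with a median of 24.1% at 100 ng, and 38 had one 31 nt away, with a median of 19.6%. Directly inside, 73 sites had a neighbour 2 nt away, with a median of 20.0%, and 24 had one 30 nt away, with a median of 18.3%. At the level limit, the highest site kept was that of pou5f3.3 at 79.98%, and the lowest left out was that of pcsk6 at 80.4%, from 46 reads. The reads that cover such neighbours overlap, and the authors removed reads with many unconverted cytosines, so the number and level of sites at short spacing may be lowered by that filter, which was not tested.

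**Figure D1:**
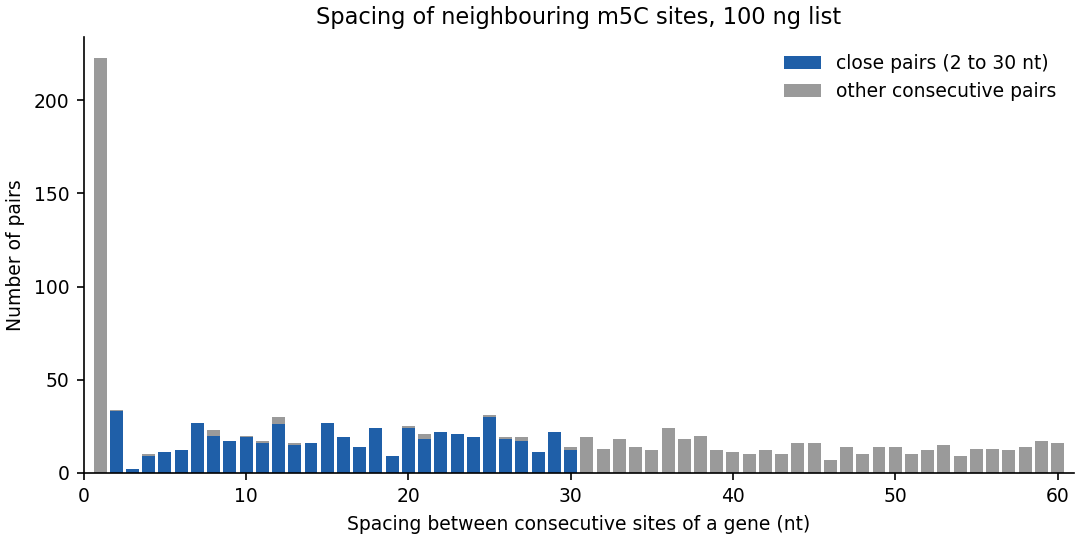
The number of consecutive site pairs of a gene (vertical axis) is plotted against their spacing in nt (horizontal axis) in the 100 ng list, for genes with 2 to 9 sites and levels below 80%. Blue bars are the 530 close pairs, with 33 at 2 nt and 2 at 3 nt, and grey bars are pairs outside the spacing limits or with a member left out.

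In depth and level, the close sites resembled the other 12412 sites below 80% in genes with 2 to 9 sites. At 100 ng their median coverage was 186 reads, against 182 reads at the other sites, and their median level was 18.7%, against 20.2%. The quartiles of the close sites were 13.3% and 33.1%, and those of the other sites 13.7% and 34.1%. The lists start at 20 reads and 10%, and 1014 close sites had at least 50 reads at 100 ng. The 100 ng levels of close and other sites were not compared by a test.

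Over all depths, close sites were found again at the lower inputs slightly less often than other sites, by less than the intervals span. Between 50 and 200 reads the gap was wider, and the other sites lay outside the intervals at 5 and 10 ng. With 20 to 49 reads the other sites lay outside the interval of the close sites at 5 ng only (0.66 to 9.04%). At 5 ng, 638 of the 1108 were listed (57.6%, exact Clopper-Pearson interval 54.6 to 60.5%), against 60.0% of the other sites. At 10 ng the shares were 54.0% of the close sites (51.0 to 56.9%) and 56.4% of the others, and at 20 ng 60.7% (57.8 to 63.6%) and 61.3%. All 3 lower lists held 483 close sites (43.6%), and none held 314 (28.3%), while among the other sites these shares were 45.8% and 27.3%. The shares were higher at deeper sites. Of the 179 close sites with the deepest coverage at 100 ng (1000 reads or more), 91.1% were listed at 5 ng, 93.9% at 10 ng and 94.4% at 20 ng, and of the 94 with 20 to 49 reads, 3.19%, 1.06% and 1.06%. The other sites with 20 to 49 reads were listed in 9.63%, 1.91% and 4.53%, and those of 1000 reads or more in 92.3%, 93.4% and 93.8%. Between 50 and 200 reads (the upper bound left out), 34.6% of the close sites were listed at 5 ng (30.3 to 39.0%), against 42.4% of the others. In the 10 ng list these were 26.7% (22.8 to 30.9%) and 35.2%, and in the 20 ng list 42.4% (38.0 to 47.0%) and 44.8%. From 200 to under 1000 reads, 86.6% of the close sites were listed at 5 ng, 85.2% at 10 ng and 84.7% at 20 ng, against 84.1%, 84.3% and 85.9% of the others. A site missing from a list may lack reads or lie under 10% there, so it is not shown to be unmethylated. The intervals of these shares treat sites as independent draws and may be too narrow. Most close sites lie in clusters, and neighbours have similar coverage. Intervals of levels below cover counting error only, since reads carry no molecular identifiers here.

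Pairs were often found again with a single site. Of the 530 close pairs, 244 had both sites listed at 5 ng (46.0%), 233 at 10 ng (44.0%) and 256 at 20 ng (48.3%). Only 1 site was listed in 125, 109 and 135 pairs. The listed site was the one with the higher level at 100 ng in 107 of the 125 at 5 ng (85.6%), in 91 of the 109 at 10 ng (83.5%) and in 102 of the 135 at 20 ng (75.6%). The lists leave out levels under 10%, so the lower site of any pair is the likelier one to be missing. No counts of wider pairs stand beside these, so they do not describe close pairs in particular.

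Single close sites that were listed in both lists differed little between inputs. Sites that fell under 10% at a lower input are not listed there and could not be compared, so larger drops may be missed. The 100 ng levels compared here also served in the selection, so calls against 100 ng are a description. With at least 50 reads in both lists, 469 close sites could be compared between 5 ng and 100 ng, 448 between 10 ng and 100 ng and 471 between 20 ng and 100 ng. The median absolute difference was 2.39 points at 5 ng, 2.74 at 10 ng and 2.35 at 20 ng, beside 2.59, 2.58 and 2.40 points at the other sites. Within 10 points of 100 ng lay 94.2%, 95.3% and 96.0% of the close sites. Two-sided Fisher's exact tests with Benjamini-Hochberg adjustment over all sites of the lists called 2 close sites at 5 ng, where 0.278% of all sites tested were called. No close site was called at 10 ng (background 0.0406%) or at 20 ng (background 0.15%), where 44 and 31 had an unadjusted p under 0.05. These were 9.82% of the close sites at 10 ng, against 8.61% of all sites, and 6.58% against 7.4% at 20 ng. At 5 ng there were 34 (7.25%, against 8.75%).

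Both called sites were lower at 5 ng. In insrr, an insulin receptor-related kinase, the site at position 110192287 of chromosome 8 (plus strand) had 21.4% at 5 ng, 26.9% at 10 ng and 23.0% at 20 ng, against 36.6% at 100 ng (adjusted p = 0.0314 at 5 ng, Fisher's exact test). In LOC100144919 the site at position 108868505 of chromosome 7 (minus strand) had 32.3% at 5 ng, 37.8% at 10 ng and 35.6% at 20 ng, against 41.8% at 100 ng (adjusted p = 0.0270 at 5 ng, Fisher's exact test). All lower inputs lay under 100 ng at both sites, but neither passed at 10 or 20 ng, where the adjusted p lay between 0.319 and 0.695. A normal test with the variance multiplied by 1.42, the factor seen between the lower inputs, called 0 close sites at each input. Coordinates are those of the authors' files, on X. tropicalis v9.1, whose positions may count from 0 or from 1. No exon or UTR annotation of that build was used here.

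Levels were then compared within the pair. Of the 530 close pairs, 137 had both sites listed with at least 50 reads in every list, called depth in every list below. The lists start at 10%, so a pair with a site under 10% in any list was left out, whatever its depth. Results on the 137 pairs therefore hold only for pairs that stayed listed. The higher site of these pairs had a median of 36.1% at 5 ng, 36.4% at 10 ng, 35.6% at 20 ng and 36.9% at 100 ng. Its partner, with less methylation, had a median of 16.7%, 17.6%, 17.0% and 17.4%. The median absolute difference between neighbours was 14.3 points in the 5 ng list (order-statistic interval 10.6 to 17.4) and 12.2 points in the 10 ng list (interval 9.39 to 19.5). In the 20 ng list it was 13.2 points (interval 9.80 to 17.0), and in the 100 ng list 13.9 points (interval 10.7 to 18.0). The median difference in these pairs was several times the median change of single close sites between inputs given above, which came from another set of sites. Wider pairs differed about as much. Their medians over the 4 lists were 12.3 to 14.1 points at 31 to 200 nt and 12.7 to 13.3 points beyond 200 nt.

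Such differences passed the test in a smaller share of close pairs than of all pairs at 5 ng, and in about the same share at 10 and 20 ng. A pair needed both sites listed with at least 50 reads. Of close pairs, 93 of 185 were called at 5 ng (50.3%, background 60%), 111 of 182 at 10 ng (60.99%, background 61%) and 111 of 187 at 20 ng (59.4%, background 61.7%). The background is the share called among all consecutive pairs of a gene, over which p-values were adjusted. That background includes genes with more sites and levels of 80% or more. Under the limits on level and gene, 58.3% of pairs 31 to 200 nt apart and 54.9% of those over 200 nt apart were called at 5 ng, with a median of 127 and 124 reads at the shallower site, where close pairs had 156. At 10 ng these shares were 59.7% and 55.6%, and at 20 ng 59.2% and 56.6%. Close pairs were deeper there too, with medians of 166 and 180 reads against 113 to 146. The tests treat the reads of both sites as independent, although one fragment often covers both. Of the 137 pairs with depth in every list, 67 were called in all 3 lower inputs, 12 in 2, 22 in 1 and 36 in none. With the reads of the lower inputs summed, 101 of the 137 were called (73.7%), beside 78.6% of all 2653 pairs with that depth. No close pair was called in opposite directions in different lists (0 of 137). No counts of wider pairs stand beside the calls over 3 lower inputs or the 0 of 137. Neither describes close pairs in particular.

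The levels of neighbours were nearly uncorrelated. Across the 137 close pairs, Pearson's r of the 5′ and 3′ levels was -0.07 at 5 ng, -0.08 at 10 ng, -0.03 at 20 ng and -0.07 at 100 ng. Spearman's rho was 0.01, -0.00 at 10 ng, 0.05 and 0.02. For 328 pairs 31 to 200 nt apart r was 0.07, 0.04, 0.04 and 0.08, and for 1344 pairs more than 200 nt apart it was 0.05 in each lower list and 0.04 at 100 ng. These correlations are across pairs that share libraries and the limits of 10% and 80%, and they carry no p. Levels of at least 40% at both sites occurred in 7, 6, 7 and 9 of the 137 pairs at 5, 10, 20 and 100 ng. These were 5.11%, 4.38%, 5.11% and 6.57%, beside 6.40%, 5.49%, 5.18% and 7.01% of pairs 31 to 200 nt apart. Beyond 200 nt the shares were 6.18%, 6.47%, 6.62% and 6.77%. Such levels at only 1 site occurred in 51, 53, 51 and 50 close pairs (37.2%, 38.7%, 37.2% and 36.5%). In wider pairs those shares were 33.8%, 35.7%, 36.6% and 33.8% at 31 to 200 nt, and 33.1%, 33.9%, 33.6% and 34.4% beyond.

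**Figure D2:**
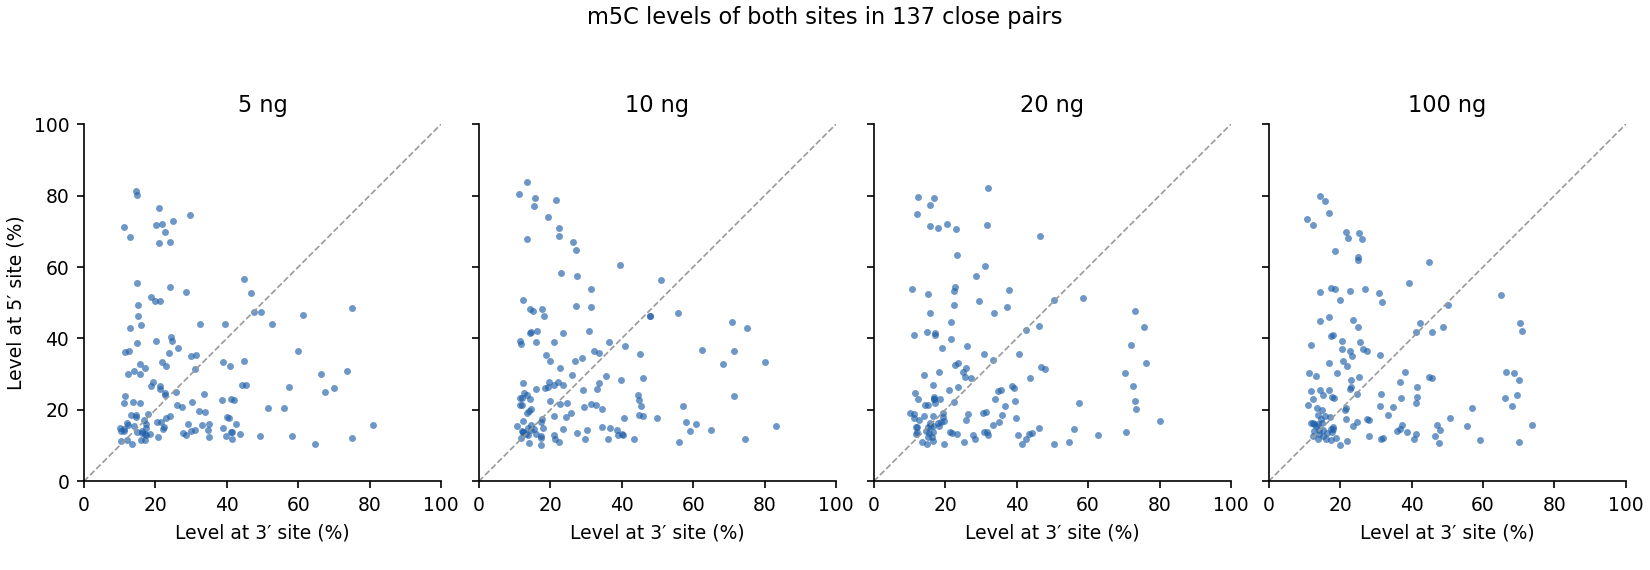
Each point is 1 of 137 close pairs with at least 50 reads at both sites in every list. The level at the 5′ site (%, vertical axis) is plotted against that at the 3′ site (%, horizontal axis) in each input, with a dashed line of equal levels. In most pairs both levels were under 40% (79, 78, 79 and 78 pairs at 5, 10, 20 and 100 ng). Both levels were 40% or more in 7, 6, 7 and 9 pairs. These shares were near those of wider pairs.

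Differences were of similar size at every spacing, with slightly higher medians at the shortest spacings, and no test compared the classes. The absolute mean difference over the lower inputs had a median of 14.3 points in 38 pairs 2 to 10 nt apart (interval 8.34 to 20.7) and of 12.7 points in 99 pairs 11 to 30 nt apart (7.96 to 17.0). It was 14.7 points in 69 pairs 1 nt apart (10.3 to 22.95), 12.8 in pairs of 31 to 200 nt (10.2 to 15.7) and 12.6 in those over 200 nt (11.4 to 13.8). These intervals overlap, and they cover the sampling of pairs only. The coverage of neighbours was more alike at short spacing, with a median ratio of the shallower to the deeper site of 0.921 in close pairs at 100 ng, against 0.741 at 31 to 200 nt and 0.549 beyond 200 nt.

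**Figure D3:**
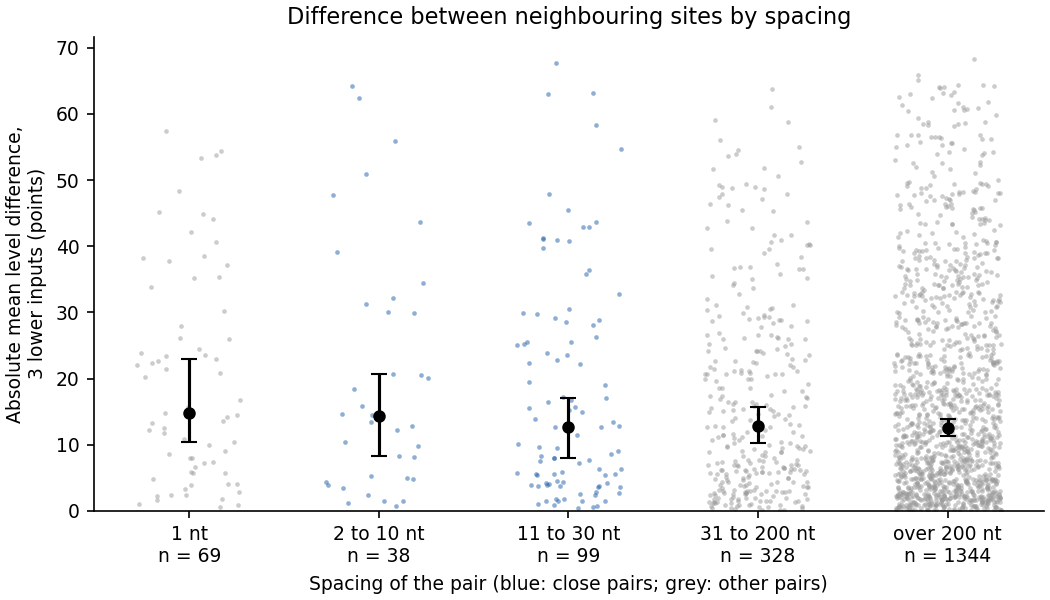
The absolute mean level difference of a pair over the 3 lower inputs (percentage points, vertical axis) is shown by spacing class (horizontal axis). Each small point is a pair, blue for close pairs and grey for others, and black points with bars are medians with 95% order-statistic intervals. The medians lie between 12.6 and 14.7 points and their intervals overlap.

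The higher level was at the 5′ site about as often as at the 3′ site. The 5′ site had the higher level in 67 of 137 close pairs at 5 ng (48.9%, exact interval 40.3 to 57.6%), 68 at 10 ng (49.6%), 66 at 20 ng (48.2%) and 72 at 100 ng (52.6%). At 31 to 200 nt these shares were 42.4%, 44.2%, 42.7% and 45.1%, and beyond 200 nt 51.3%, 49.6%, 50.1% and 50.4%. The close-pair interval at 5 ng includes both 5 ng shares, so it does not separate close pairs from either. Among the close pairs called, the 5′ site was higher in 47 of 93 at 5 ng, in 57 of 111 at 10 ng and in 54 of 111 at 20 ng.

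In the 137 pairs that stayed listed, the direction and size of the difference mostly returned from list to list. The same site was higher in all 4 lists in 107 of the 137 close pairs (78.1%), beside 256 of 328 pairs at 31 to 200 nt (78.0%) and 1075 of 1344 beyond 200 nt (80.0%). Of the 85 close pairs that differed by at least 10 points at 100 ng, 81 kept the direction in every list (95.3%). Among such pairs the share was 98.4% at 31 to 200 nt and 96.1% beyond 200 nt. Of the 35 close pairs that differed by under 5 points, 13 did (37.1%), beside 38.3% and 41.1%. The 4 exceptions among close pairs with at least 10 points were mmp15, dnajb6, insrr and rbm39, chosen after their values were seen. In dnajb6, a chaperone partner of Hsp70, the 5′ site 24 nt from its neighbour had 35.1% at 5 ng, 25.5% at 10 ng, 50.4% at 20 ng and 45.0% at 100 ng. Its 3′ site had 29.9% at 5 ng, 29.1% at 10 ng, 29.6% at 20 ng and 23.6% at 100 ng. Their order was reversed at 10 ng only.

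Between 100 ng and a lower input, the 5′ minus 3′ difference of a close pair moved by a median of 3.54 points at 5 ng, 4.09 at 10 ng and 3.35 at 20 ng. It stayed within 10 points in 123, 117 and 126 of the 137 pairs (89.8%, 85.4% and 92.0%). At 31 to 200 nt these shares were 91.5%, 88.4% and 91.2%, and beyond 200 nt 90.0%, 87.2% and 91.4%. A likelihood-ratio test of equal odds ratios over the lower inputs, with adjustment over 2653 consecutive pairs, called 0 of the 137 close pairs (background 0%). The smallest adjusted p was 0.218, for spry2, and 13 close pairs had an unadjusted p under 0.05 (9.49%), beside 10.1% of all pairs. With the 100 ng list added, whose levels served in the selection, 0 close pairs and 12 of all pairs were called. In that test 22 close pairs had an unadjusted p under 0.05 (16.1%), beside 12.7% of all pairs.

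**Figure D4:**
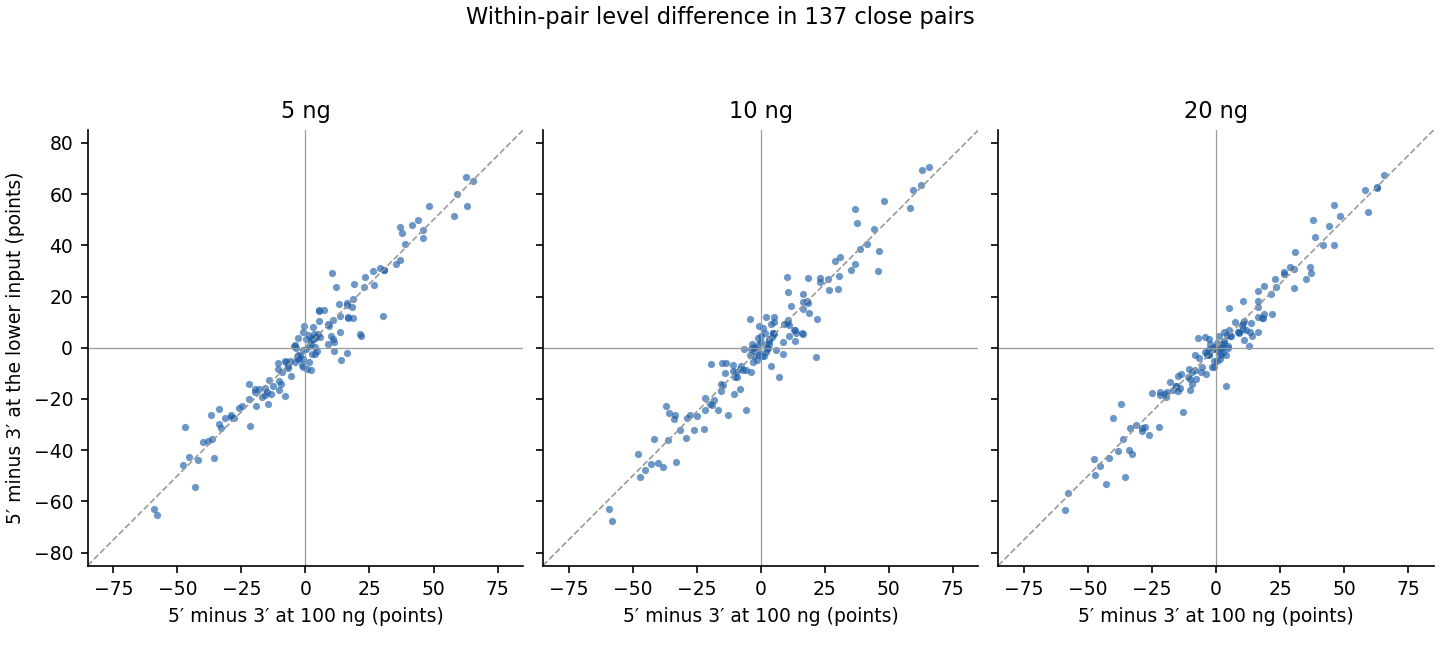
The 5′ minus 3′ level difference of a close pair (percentage points) at 5, 10 or 20 ng (vertical axis) is plotted against that at 100 ng (horizontal axis), with 1 point per pair (n = 137) and a dashed line of equal values. The points follow the line, and 107 pairs keep their sign in all 4 lists.

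The deviations of both sites of a close pair were also compared. The deviation of a lower input from the mean of the other lower inputs was correlated between both sites with r = 0.15 at 5 ng, 0.17 at 10 ng and 0.16 at 20 ng (n = 137 pairs). The 95% intervals (Fisher's z) were -0.01 to 0.31, 0.01 to 0.33 and -0.01 to 0.32, so those of 5 and 20 ng include 0. In pairs 31 to 200 nt apart r was -0.01, 0.00 and -0.03, and beyond 200 nt it was -0.00, -0.03 and 0.00. In the 69 pairs 1 nt apart it was -0.03, -0.20 and -0.23. The close pairs were not uniform. At 5, 10 and 20 ng, r was 0.06, 0.37 and 0.43 in 38 pairs 2 to 10 nt apart. In 99 pairs 11 to 30 nt apart it was 0.19, 0.09 and 0.06. The deviations of the 3 inputs sum to 0 and neighbours share reads, so these values are a description.

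The widest differences joined a site near 75% to one near 15%. In pou5f3.3, a maternal POU transcription factor of the Oct4 family, 12 nt separated the sites at positions 506568 and 506556 of chromosome 8 (minus strand). The 5′ site had 80.2% of 864 reads at 5 ng, 83.9% of 1057 at 10 ng, 79.7% of 1208 at 20 ng and 79.98% of 6263 at 100 ng. The 3′ site had 15.0% of 889 reads at 5 ng, 13.4% of 1076 at 10 ng, 12.5% of 1277 at 20 ng and 14.4% of 6282 at 100 ng. Neither site came near the other in any list, and the mean difference of the lower inputs, 67.7 points, was the largest of the 137 pairs. In vegt, the other egg marker with close sites and the gene of a maternal T-box factor, sites 16 nt apart had lower levels. The site at position 144374363 of chromosome 1 had 24.3% at 5 ng, 35.1% at 10 ng, 20.9% at 20 ng and 25.4% at 100 ng, and the one at 144374347 had 12.4% at 10 ng, 12.5% at 20 ng and 13.1% at 100 ng.

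Both sites of myo6, the gene of myosin VI, were only 2 nt apart (chromosome 5, plus strand, 82457021 and 82457023). The 5′ site had 68.5% at 5 ng, 80.5% at 10 ng, 74.8% at 20 ng and 73.5% at 100 ng. Its neighbour had 13.02%, 11.3%, 12.2% and 10.6%. Between 328 and 411 reads covered each site at the lower inputs, and the difference was called in each (largest adjusted p = 1.64e-53, Fisher's exact test). Although 1 base lay between them, the levels were apart by 55.4 points or more in every list.

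The other pairs with the largest differences were in genes of unrelated roles. In snrpg, an Sm protein of the spliceosome, sites 8 nt apart had 81.2% and 14.5% at 5 ng, 79.2% and 15.7% at 10 ng, 79.2% and 16.9% at 20 ng, and 78.5% and 15.9% at 100 ng, the 5′ site first. In golga5, a Golgi membrane protein, the 5′ site 8 nt from its neighbour had between 71.7% and 77.3% over the 4 lists and the 3′ site between 15.7% and 20.2%. In slc1a5, a neutral amino acid transporter, the 5′ site had 71.0% to 77.2% and the 3′ site, 20 nt away, 11.3% to 18.0%. All of these had the higher level at the 5′ site, as did ccno, the gene of cyclin O, with 69.9% to 78.8% against 20.6% to 21.7% at 15 nt.

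The reverse order was found in dse and taf5. In dse, which makes dermatan sulfate, the 5′ site had 13.8% to 15.8% and the 3′ site, 28 nt away, 70.7% to 83.2%. In taf5, a subunit of the general transcription factor TFIID, the 5′ site had 11.1% to 17.0% and the 3′ site, 25 nt away, 70.1% to 80.2%. Mean differences over the lower inputs were -63.2 points in dse and -62.95 points in taf5, and both were called at every lower input.

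Other neighbours had nearly the same level. In brwd3, a bromodomain protein, the 5′ site had 52.8% at 5 ng, 46.2% at 10 ng, 50.7% at 20 ng and 49.4% at 100 ng. Its neighbour, 7 nt away, had 46.8%, 47.9%, 50.4% and 50.3%. The difference changed sign between lists and was not called (adjusted p = 0.0973, 0.647 and 0.987, exact test). In triobp, an actin-binding protein, sites 2 nt apart had 44.1% and 52.8% at 5 ng, 46.4% and 48.0% at 10 ng, 42.5% and 42.5% at 20 ng, and 44.5% and 42.3% at 100 ng, and were not called either. In pigb, a mannosyltransferase of GPI anchor synthesis, the difference was -0.14, -9.39 and -2.65 points at 5, 10 and 20 ng and was called at 10 ng only (adjusted p = 0.0261, exact test). In LOC100144919 it was -8.44, -3.22 and -5.09 points and was called at 5 ng only (adjusted p = 0.00240, exact test).

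**Figure D5:**
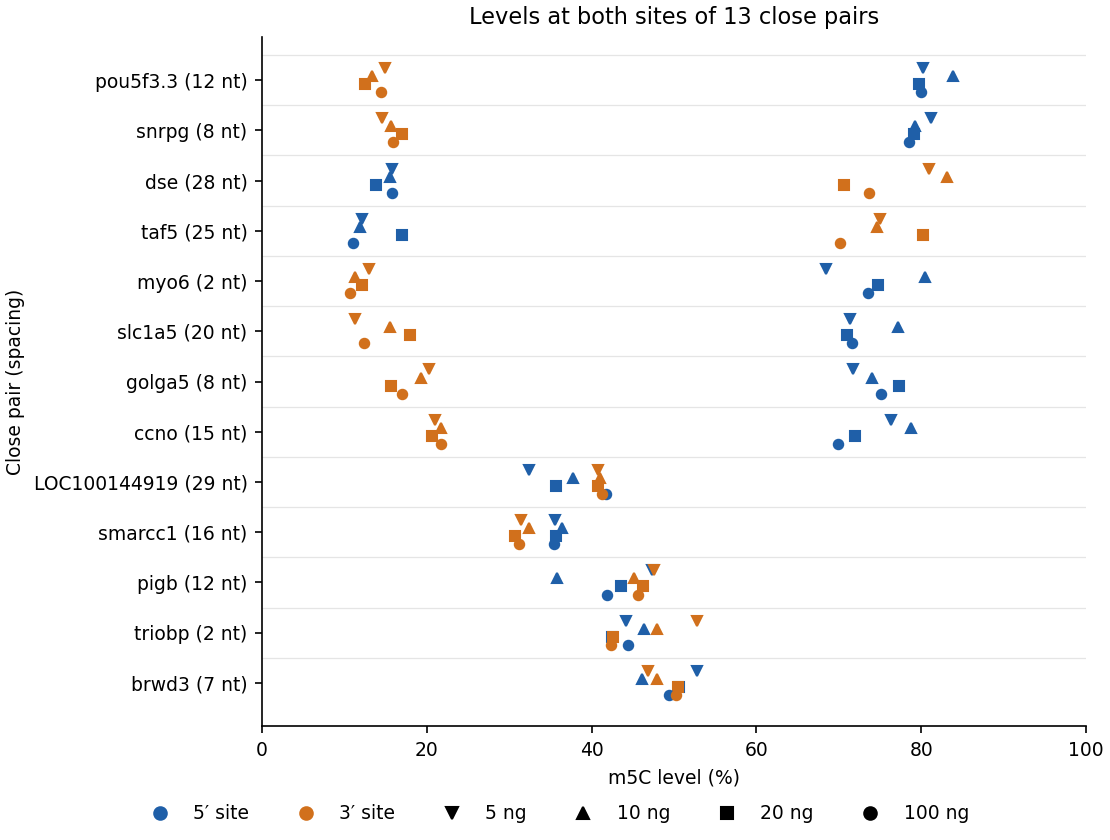
Levels (%, horizontal axis) at the 5′ site (blue) and the 3′ site (orange) are shown for the 8 close pairs with the largest and the 5 with the smallest mean difference over the lower inputs. The 5 smallest were taken among pairs with a mean of at least 30% at 100 ng. Marker shapes are the 4 lists. In the upper 8 pairs 1 site stays between 10.6% and 21.7% and its neighbour between 68.5% and 83.9%.

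Small differences were called in the deepest pairs. The deepest close pair was in smarcc1, a core subunit of the SWI/SNF chromatin remodeller. Its 5′ site had 35.5% of 3143 reads at 5 ng, 36.4% of 3894 at 10 ng, 35.6% of 3984 at 20 ng and 35.4% of 15030 at 100 ng. Its 3′ site, 16 nt away, had 31.4% of 3109 reads, 32.4% of 3836, 30.7% of 3971 and 31.2% of 15527. The 5′ site was higher by 4.08, 4.09, 4.89 and 4.22 points, and each lower list called it (adjusted p = 0.00144, 0.000346 and 9.85e-06, exact test). In LOC100145486, differences of -2.73, -3.11 and -2.78 points at 5, 10 and 20 ng were called as well (adjusted p = 0.0391, 0.0136 and 0.0185, exact test), and 100 ng had -2.72 points.

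In kif11, the mitotic kinesin that drives spindle poles apart, the 5′ site had 27.0% at 5 ng, 28.98% at 10 ng, 28.95% at 20 ng and 29.2% at 100 ng. Its 3′ site, 17 nt away, had 45.5%, 46.0%, 43.8% and 44.8%. In cdt1, which licenses replication origins, the 5′ site had 43.9%, 41.5%, 40.9% and 40.8%, and the 3′ site, 23 nt away, had 16.1%, 14.3%, 17.1% and 17.6%. In smox, which oxidises spermine, sites 2 nt apart had 33.5% and 21.8% at 5 ng, 39.0% and 21.2% at 10 ng, 39.8% and 21.5% at 20 ng, and 37.1% and 20.6% at 100 ng. Each of these 3 pairs was called in every lower list, with the order of its sites kept.

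Pairs 2 nt apart were as varied as wider ones. In 13 of them with depth in every list, the same site was higher throughout in 11, all but triobp and proca1. In scaf8, with the bases shown above, the 5′ site had 48.6%, 36.5%, 43.1% and 42.0% at 5, 10, 20 and 100 ng, and the capital cytosine had 75%, 71.5%, 75.5% and 71.0%. In chst7, a sulfotransferase, the 5′ site had 36.4%, 42.9%, 38.0% and 44.4% and the 3′ site 59.9%, 75%, 72.1% and 70.4%. Blmh, a cysteine protease, had the opposite order, with 51.5%, 48.2%, 49.4% and 53.8% at the 5′ site and 18.7%, 17.8%, 22.5% and 18.6% at the 3′ site (chosen after its values were seen). In rab2a the capital cytosine had 19.6%, 21.1%, 19.7% and 20.5%, and the 5′ site 11.5% at 5 ng, 12.4% at 10 ng and 11.8% at 100 ng. For pemt the 5′ site had 30%, 34.5%, 23.1% and 29.5% and the capital cytosine 12.5%, 28.9%, 16.9% and 13.3%, a difference called at 5 ng only (adjusted p = 0.0203, exact test). In ap4e1, with 40 and 41 reads at 100 ng, the 5′ site had 48.8% (32.9 to 64.9%) and the 3′ site 10.0% (2.79 to 23.7%), and neither was listed at a lower input.

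Both clusters of 4 sites and the 3 deepest of the 17 with 3 sites at 100 ng had levels in no single order. In csnk2a1, the catalytic subunit of casein kinase 2, 3 sites within 31 nt had 12.9%, 13.5%, 12.9% and 12.6% (first), and 28.5%, 27.6%, 27.9% and 28.2% (second) at 5, 10, 20 and 100 ng. The third site, 4 nt after the second, had 14.6% at 10 ng, 11.9% at 20 ng and 11.3% at 100 ng. For gipc1, a PDZ scaffold protein, the first site had 71.9%, 68.7%, 70.6% and 69.5%, the second, 26 nt on, 21.9%, 22.5%, 23.1% and 25.3%, and the third, 2 nt further, 15.7%, 19.9%, 16.8% and 11.98%. In eif5b, which joins the ribosomal subunits in initiation, 3 sites within 32 nt lay between 10.7% and 18.3% in every list that held them, and its first pair was called in none. Only 2 clusters had 4 sites. That of mlxip, a glucose-sensing transcription factor, ran over 78 nt, with 32.6%, 42.8%, 15.2% and 37.6% at 100 ng in 5′ to 3′ order. That of Xetrov90010407m.g ran over 54 nt, with 27.3%, 22.0%, 27.1% and 10.1%, and both had under 100 reads per site at the lower inputs.

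Close sites were spread over genes of many roles. Among genes with 2 to 9 sites on chosen lists, those with close sites were 5 of 59 for mitosis and cell cycle (8.47%), 6 of 60 for chromatin and transcription regulators (10.0%) and 5 of 49 for translation and decay of maternal mRNA (10.2%). They were 8 of 62 for ubiquitin ligases and deubiquitinases (12.9%) and 4 of 42 for cytoskeleton and motors (9.52%). The list of Wnt, TGF-beta, Notch, FGF and Hedgehog signalling had 15 of 50 (30%), and those of m5C writers and readers and of extracellular matrix, adhesion and junctions had 0 of 5 and 0 of 32. The share over all genes with 2 to 9 sites was 13.7%, and no list was tested against it.

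On the signalling list, close sites were found among others in receptors and ligands (lrp6, fzd1, acvr2a, fgf2), in enzymes (gsk3b, porcn, tnks2, smurf1, smurf2) and in regulators and nuclear factors (smad6, spry2, maml1, pygo1, rbpj). In lrp6, a Wnt co-receptor, the 5′ site had 46.2%, 48.2%, 47.3% and 45.9% at 5, 10, 20 and 100 ng, and the 3′ site, 8 nt away, 15.2%, 14.3%, 15.7% and 17.0%. In spry2, an inhibitor of FGF signalling, the 5′ site had 69.8%, 67.7%, 60.4% and 62.0% and the 3′ site, 14 nt away, 22.8%, 13.6%, 31.03% and 25%. Its difference was 47.0, 54.1 and 29.4 points at 5, 10 and 20 ng, called in each.

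On the other lists the named pairs were of several kinds. In daam1, a formin, 23 to 40 reads at the 5′ site gave 39.1%, 35.0% and 30.8% at 5, 10 and 20 ng, against 80.0%, 60.0% and 75% at the 3′ site, 7 nt away, too few for the test. At 100 ng they had 38.2% and 74.2%. In bap1, a deubiquitinase of chromatin, the 5′ site had 43.0%, 33.6%, 37.1% and 35.7%, and the 3′ site, 15 nt away, was listed at 10 ng (11.4%) and 100 ng (10.8%). In lsm14a, a translational repressor of P-bodies, sites 4 nt apart had 11.3% and 18.9% at 5 ng, 11.1% and 18.2% at 20 ng, and 10.9% and 20.5% at 100 ng, and the difference passed at 20 ng (adjusted p = 0.0486) but not at 5 ng (adjusted p = 0.0508, exact test). In cul1, the scaffold of SCF ubiquitin ligases, the difference over 9 nt was -5.40, -0.31 and -10.1 points at the lower inputs and passed at 20 ng only (adjusted p = 0.0107, exact test). In mdm4, an inhibitor of p53, each site was listed at 100 ng and at 1 lower input, with 10.5% at the 5′ site and 18.4% at the 3′ site at 100 ng.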

How the data were processed

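RNA BS-seq libraries were made from bisulfite-converted polyadenylated RNA of X. tropicalis stage 0 embryos. The protocol in the labels names at least 100 ng converted and 20 ng fragmented, so input means the labelled amount. Per the methods of the study, reads were trimmed by the authors with cutadapt and Trimmomatic and mapped with HISAT2 to the converted genome (X. tropicalis v9.1), then with Bowtie2 to the converted transcriptome. Reads with many unconverted cytosines and sites of conversion-resistant genes were removed by the authors, and a one-sided binomial test gave the site calls. The submitters' processing notes give bcl2fastq 2.17 and HISAT2 2.10.

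The deposited values per site are the count of reads showing C or T (coverage) and the fraction of these showing C (m5C level), as the authors computed them. Their p-value and call columns were not used. Level times coverage was whole to within 2.6e-05 reads. Median coverage per site was 80, 80, 83 and 183 reads at 5, 10, 20 and 100 ng.

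Sites were matched by chromosome, position and strand. Pairs are consecutive sites of a gene on 1 strand, and differences are 5′ minus 3′ in percentage points. Fisher's exact tests and the likelihood-ratio test used sites listed with at least 50 reads in each list compared. They had Benjamini-Hochberg adjustment over all sites or pairs tested and a threshold of 0.05. They were tried on simulated reads drawn independently, without the extra variance seen between lists and without fragments shared by a pair. Their behaviour under these conditions was not tested. Python 3.11.15, SciPy 1.17.1 and pandas 2.3.3 were used. Intervals are at 95%. The members and gene lists were chosen with earlier results of these data known. Named pairs are the 5 clusters with most sites, the 8 largest and 5 smallest differences (the smallest with a mean of at least 30%), the 5 deepest and 3 shortest pairs with depth in every list, called sites, and up to 2 of the deepest pairs per gene list, with the pairs whose bases were listed added later. Of 553 genes with close sites, 504 symbols (91.1%) were in the RefSeq gene table.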

Additional observations from a re-analysis of the deposited data

How the results depend on the processing

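Of 83 alternatives to 31 results, 69 stayed within the error of the value reported or within 1.5 times the count. The number of close sites was 717 with a spacing limit of 20 nt, and that of close pairs 340 at 20 nt and 803 at 50 nt. The share of close sites listed at 5, 10 and 20 ng was 62.6%, 58.9% and 66.3% for sites with at least 50 reads at 100 ng, and 71.1%, 65.02% and 73.0% for sites of at least 20% at 100 ng. Among the other sites these shares were 65.7%, 62.5% and 67.7%, and 72.0%, 66.9% and 72.5%. With at least 50 reads, those at 5 and 10 ng lay outside the intervals of the close sites (59.6 to 65.6% and 55.8 to 61.9%). Such intervals treat neighbouring sites as independent and may be too narrow. The share of pairs with both sites listed was 51.4%, 49.3% and 54.1% with at least 50 reads at both sites at 100 ng. With the variance factor, 0 close sites differed from 100 ng at 5 ng. The correlation of the deviations at 5 ng was 0.33 with a minimum of 100 reads. With that minimum it was 0.32 at 10 ng and 0.21 at 20 ng, inside their intervals. Alternatives for the correlation without limits on level or gene, and for the share with the same site higher in every list, were added after seeing the data. No paired analysis was possible because replicate numbers exist only for 100 ng, whose libraries were deposited as 1 list, and no result without either library could be given. Lower inputs have 1 library each, so the spread between libraries of an input is unknown, and calls of small differences rest on depth.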

Other observations

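Some sites near the close sites were listed at a lower input but not at 100 ng. Within 30 nt of a close site there were 12 such sites at 5 ng, 11 at 10 ng and 6 at 20 ng, which were 0.60%, 0.61% and 0.33% of the sites in those lists that the 100 ng list lacked. Their median level was 12.8%, 12.1% and 12.5%, from a median of 65, 78 and 47.5 reads. Of the 21 different sites, 2 were in all 3 lower lists.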
